A study of Mus musculus with 12 samples.

Results

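Gene expression was compared between whole ovaries of lethal yellow (LY) and black mice at 180 days of age, the age at which LY mice are obese. These are 6 of the 12 arrays of the study, 3 LY and 3 black mice with 1 array per mouse, and no RNA was pooled. The 180-day LY mice carried the genotype Ay/a and the 180-day black mice the genotype a/a, and both came from 1 C57BL/6J breeding colony. All mice, the 90-day groups included, received the GnRH antagonist Antide at 10 μg/g body weight on days 1 and 4, which suppresses the release of pituitary gonadotropins. On day 5 they received eCG, a gonadotropin that makes follicles grow, at 1 IU per 5 g body weight according to the methods, and the ovaries were removed 36 h later and trimmed of fat. The other 6 arrays, from 90-day LY and 90-day black mice of the same genotypes, were hybridized separately, so that age cannot be told apart from the array set. The LY mice differed from the black mice in both genotype and body weight at 180 days, so the effects of the allele and of obesity cannot be told apart at this age. Both doses followed body weight in the methods, so the total dose per mouse cannot be told apart from these either. Of the 36227 probes on the array, the 30340 with a mean of at least 0.2 relative intensity units in either 180-day group were tested, and 18739 of these are named for 1 gene, for 15967 genes in all.

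The Ay allele is a deletion upstream of agouti that removes the coding part of Raly and places agouti under the control of the Raly promoter, so that agouti is transcribed in almost every tissue. Agouti protein blocks melanocortin receptors, and its action in the hypothalamus causes overeating and adult-onset obesity. Theca and granulosa cells of the ovary build steroids from cholesterol, a synthesis that begins in mitochondria. Growing follicles enclose an oocyte whose stored transcripts make up a part of the RNA of the organ.

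Values are relative intensity units, where the median probe of an array is 1 and 0.2 is the limit of sensitivity that the methods give. On the 180-day arrays 82.8% to 83.3% of values lay at or above that limit. Ovarian markers were present in all 6 mice, with Inha at 48.3 to 97.9 units, Cyp17a1 at 103 to 227, Star at 16.4 to 44.0, Zp3 at 15 to 36.4, Gdf9 at 3.70 to 5.36, Fshr at 4.05 to 9.60 and Amh at 1.06 to 1.35 units, while Cyp19a1 was not measured by a probe named for it alone. Correlations between arrays ran from 0.982 to 0.989 inside the groups and from 0.978 to 0.986 across them. LY replicate 3 stood apart on the first principal component (34.0% of the variance), at 47.9 against 1.93 and 14.7 for the other LY mice and -20.1 to -23.1 for the black mice.

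Agouti itself separated the genotypes as their labels require. Its probe measured 0.169, 0.368 and 0.345 units in the black mice and 96.7, 101 and 111 units in the LY mice. The difference was 8.53 ± 0.23 on the log2 scale (SE, limma adjusted p = 2.59e-08), and no black mouse came near any LY mouse.

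Across all probes, 33 passed limma's test at an adjusted p of 0.05, which is 0.109% of those tested, and they are described as called below. Of the 33 probes, 26 were higher in LY ovaries (0.0857% of probes tested) and 7 were lower (0.0231%). The called probes named for 1 gene stand for 25 genes, 22 of them higher and 3 lower (0.157% of 15967 genes). A further 3 called probes are named for several genes, and 5 carry no name here, 3 of these higher and 2 lower. At each of the 33 called probes the lowest mouse of the higher group lay above the highest mouse of the lower group, which held for 23.0% of the probes tested. The probes were called on these same values, so their lack of overlap is a description and no further support. An exact permutation test of 3 mice against 3 cannot give a two-sided p below 0.1, so none is reported for single genes. At an unadjusted p under 0.05, 2197 probes were higher in LY ovaries (7.24%) and 1560 lower (5.14%). Because each value averages a whole ovary, fewer cells of a type and less RNA per cell cannot be told apart in any of these results. Of the called probes, 5 had 1 group wholly under the limit of sensitivity, so they passed the filter only through the other group. The count of called probes depended on the probes and mice that entered the fit. It was 26 (22 higher, 4 lower) when a mean at or above the limit was required in both 180-day groups. It was 14 when probes above the limit in any of the 4 groups were tested and 1 with no filter. With limma on the 6 arrays of 180-day mice alone it was 2. Leaving out 1 array at 180 days gave 5, 3 and 2 probes without black replicates 1, 2 and 3, and 19, 26 and 9 without LY replicates 1, 2 and 3. Of the 25 called genes, agouti alone kept its call without black replicate 2 and without black replicate 3, and the highest adjusted p of the other genes over the single arrays left out lay between 0.105 and 0.191.

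**Figure D1:**
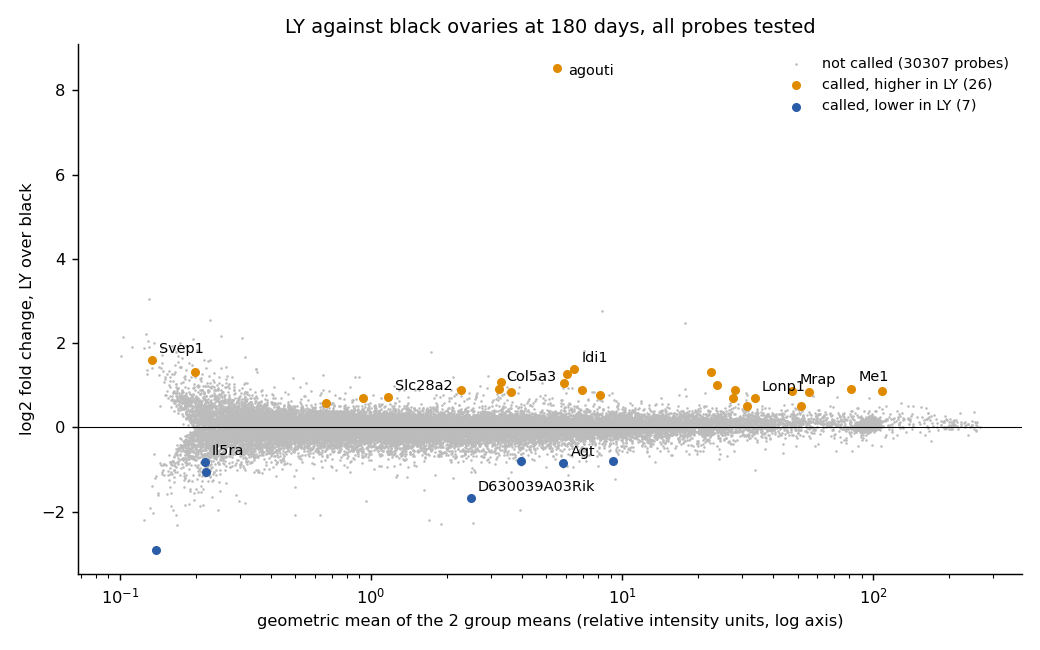
Each point is 1 of the 30340 probes, with its level (geometric mean of both group means in relative intensity units, log axis) on the x axis and the log2 fold change of LY over black ovaries at 180 days on the y axis. The 26 orange and 7 blue points are called probes, and apart from agouti at 8.53 they lie among many probes of similar fold that were not called.

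Of the 25 called genes, 9 encode enzymes of cholesterol synthesis (Cyp51, Idi1, Fdps, Mvk, Hmgcs1, Lss, Pmvk, Msmo1 and Mvd), with log2 fold changes from 0.83 for Mvk to 1.39 for Idi1. The other 16 are agouti and 15 genes outside that pathway, 12 higher and 3 lower in LY ovaries. Promoter sequences are shown for 3 of these 15, the endoplasmic reticulum protein Tmem97, the mitochondrial protease Lonp1 and the hormone precursor Agt, beside that of Hmgcs1, the enzyme that makes HMG-CoA. They are shown because sterol-responsive genes are commonly switched on through SREBP-2 together with NF-Y, and the called genes inside and outside the sterol pathway can be compared for those letters. Each is the stretch of 250 bases before the transcription start in RefSeq, build GRCm38.p6, written 5′ to 3′ on the strand of the gene. Capitals mark matches on either strand to a sterol regulatory element (SRE, TCACNCCAC), an E-box (CACGTG), an NF-Y box (CCAAT) or an SF-1 site (CAAGGTCA).
Tmem97: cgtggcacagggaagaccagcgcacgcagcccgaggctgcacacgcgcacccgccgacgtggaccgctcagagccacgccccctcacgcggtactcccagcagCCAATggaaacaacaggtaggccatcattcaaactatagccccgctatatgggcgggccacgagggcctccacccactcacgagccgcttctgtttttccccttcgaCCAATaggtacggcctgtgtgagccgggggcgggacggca
Lonp1: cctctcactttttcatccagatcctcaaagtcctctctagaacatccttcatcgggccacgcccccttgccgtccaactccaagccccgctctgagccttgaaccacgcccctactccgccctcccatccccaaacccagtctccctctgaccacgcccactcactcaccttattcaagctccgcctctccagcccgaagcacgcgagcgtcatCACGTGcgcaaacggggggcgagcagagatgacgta
Agt: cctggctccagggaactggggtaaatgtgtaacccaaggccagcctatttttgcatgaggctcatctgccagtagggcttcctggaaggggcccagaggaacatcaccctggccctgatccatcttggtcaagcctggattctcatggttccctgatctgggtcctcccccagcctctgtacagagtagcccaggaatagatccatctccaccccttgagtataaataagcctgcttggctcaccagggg
Hmgcs1: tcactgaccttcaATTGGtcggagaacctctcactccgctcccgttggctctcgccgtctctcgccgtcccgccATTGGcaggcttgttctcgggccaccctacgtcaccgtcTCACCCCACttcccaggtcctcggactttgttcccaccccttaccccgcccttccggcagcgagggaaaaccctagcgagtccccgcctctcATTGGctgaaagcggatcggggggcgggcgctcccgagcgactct
Tmem97 lies at chr11:78550736-78550985 on the minus strand, and its window holds 2 NF-Y boxes. Lonp1 lies at chr17:56626904-56627153 on the minus strand, and its window holds an E-box. Agt lies at chr8:124569707-124569956 on the minus strand, and none of the 4 motifs is in its window, which says only that these letters are not there. Hmgcs1 lies at chr13:119690101-119690350 on the plus strand, and its window holds the SRE and 3 NF-Y boxes.

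A promoter was found for 22 of the 25 called genes. The NF-Y box was in at least 1 promoter of all 8 sterol enzymes with one and of 5 of the 14 other genes, against 33.8% of 32851 promoters. The SRE was found in the promoter of Hmgcs1 alone among the 22 genes, against 1.05% of all promoters. The E-box was found in that of Lonp1 alone (6.02% of all promoters), and the SF-1 site in that of D630039A03Rik alone (1.33%). These counts describe letters in a short window and were not tested.

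The called genes outside cholesterol synthesis that handle lipids were Tmem97, Me1, Agpat3, Ttpa and Hao2, and all 5 rose in LY ovaries. Tmem97, also known as the sigma-2 receptor, is a protein of sterol handling in the endoplasmic reticulum. It measured 22.4, 21.2 and 21.7 units in black mice and 35.0, 34.7 and 36.1 units in LY mice, with little spread in either group. The log2 fold change was 0.69 ± 0.08 (SE, limma adjusted p = 0.0196). Me1 is the cytosolic malic enzyme, which supplies NADPH for the synthesis of fatty acids and sterols. Its values were 62.2, 54.8 and 60.6 units in black mice and 98.5, 113 and 126 units in LY mice, a log2 fold change of 0.92 ± 0.12 (adjusted p = 0.0266). The lowest LY mouse lay well above the highest black mouse.

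Agpat3, an acyltransferase of phospholipid synthesis, measured 44.3, 42.7 and 42.7 units in black mice and 58.5, 65.1 and 63.1 in LY mice. It rose by 0.52 ± 0.08 on the log2 scale (limma adjusted p = 0.0485). Ttpa, the transfer protein for vitamin E, was near the median level of the array, at 0.677, 0.722 and 0.792 units in black and 1.14, 1.18 and 1.22 units in LY mice, and rose by 0.69 ± 0.10 (adjusted p = 0.0418). Hao2, a peroxisomal oxidase of hydroxy acids, measured 27.9, 25.5 and 25.9 units in black and 38.7, 36.1 and 37.5 in LY mice. Its change of 0.50 ± 0.08 was the smallest of the called genes (adjusted p = 0.047), and its groups did not overlap. Agpat3, Hao2 and Lonp1 lost their calls with each of the 12 arrays left out in turn, with adjusted p up to 0.182, 0.182 and 0.171. Among the other called genes outside cholesterol synthesis, Mrap, Il5ra, Col5a3 and Gcat kept theirs in 1 of the 12 fits. Agt and Ttpa kept theirs in 2.

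Mitochondrial proteins outside the lipid enzymes were represented by Lonp1, Cisd3 and Gcat, all higher in LY ovaries. Lonp1 is the protease that degrades damaged proteins in the mitochondrial matrix. It measured 27.6, 26.5 and 25.3 units in black mice and 39.7, 47.0 and 42.1 in LY mice, and rose by 0.70 ± 0.10 on the log2 scale (limma adjusted p = 0.0418). Cisd3, an iron-sulfur cluster protein of mitochondria, measured 6.27, 6.26 and 6.32 units against 10.4, 10.5 and 10.9 units and rose by 0.76 ± 0.09 (adjusted p = 0.0266). The black mice differed by under 0.1 units at this probe, while a second Cisd3 probe gave a log2 difference of 0.49 that was not called (adjusted p = 0.244). Gcat, which cleaves a product of threonine breakdown to glycine and acetyl-CoA, measured 4.40, 5.36 and 5.55 units in black and 8.34, 9.85 and 10.0 in LY mice. It rose by 0.89 ± 0.14 (adjusted p = 0.0485), with a wider spread in both groups than Cisd3 had.

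Hormone and receptor genes moved in both directions. Mrap, the accessory protein that carries the ACTH receptor to the cell surface, measured 35.0, 38.6 and 32.1 units in black mice and 64.4, 58.7 and 69.1 units in LY mice. It rose by 0.86 ± 0.13 on the log2 scale (limma adjusted p = 0.0418). The ACTH receptor itself, Mc2r, lay near the limit of sensitivity in both groups, from 0.132 to 0.233 units in black and from 0.14 to 0.25 in LY mice. Agt is angiotensinogen, the precursor of the angiotensin peptides. Agt measured 7.94, 8.41 and 7.08 units in black mice against 4.44, 4.26 and 4.39 units in LY mice, and fell by 0.84 on the log2 scale (SE 0.12, adjusted p = 0.0418). The 3 LY mice lay close together and well under the black mice. Il5ra, a chain of the interleukin 5 receptor found on eosinophils, measured 0.294, 0.286 and 0.284 units in black mice and lay under the limit in all LY mice, at 0.156, 0.196 and 0.142 units. Il5ra passed the filter only through the black mice, and its limma adjusted p of 0.047 rests on values under the limit. With the LY mice set to the limit it was at least 1.44-fold lower in LY ovaries. Slc28a2, a sodium-dependent nucleoside transporter, measured 0.900, 0.875 and 0.956 units in black and 1.49, 1.45 and 1.57 in LY mice and rose by 0.72 ± 0.09 (adjusted p = 0.0266).

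**Figure D2:**
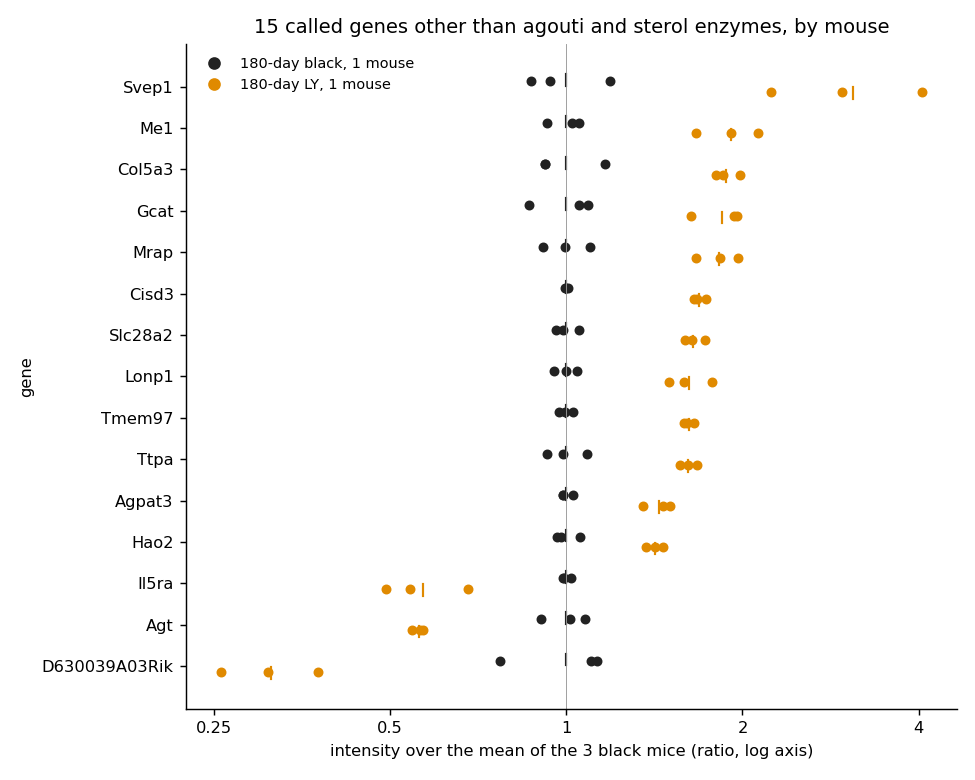
Each point is 1 mouse, with the intensity of a gene divided by the mean of the 3 black mice (ratio, log axis) for the 15 called genes other than agouti and the sterol enzymes, and short bars mark the group means. Black mice are black points and LY mice orange points, and the groups do not overlap for any of the 15 genes, of which Svep1 and Il5ra have 1 group under the limit of sensitivity. The genes were called on these same values, so the lack of overlap is a description.

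Genes of the extracellular matrix with a call were Col5a3 and Svep1. Col5a3, a chain of type V collagen, measured 2.17, 2.17 and 2.75 units in black and 4.37, 4.67 and 4.26 in LY mice and rose by 0.92 ± 0.14 on the log2 scale (limma adjusted p = 0.047). Svep1 is a large adhesion protein of the matrix. It measured 0.0718, 0.0909 and 0.0665 units in black mice, all under the limit, and 0.171, 0.226 and 0.310 units in LY mice, of which the first was under the limit as well. Svep1 passed the filter only through the LY mice, and its limma adjusted p of 0.0266 rests on values under the limit. With the black mice set to the limit, Svep1 was at least 1.14-fold higher, a bound that the LY mouse under the limit weakens.

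The largest fall among the called genes was in D630039A03Rik, a transcript without a known function, at 3.44, 5.03 and 4.91 units in black mice and 1.15, 1.38 and 1.68 units in LY mice. It fell by 1.67 on the log2 scale (SE 0.19, limma adjusted p = 0.0196). Among the 5 called probes without a name here, the one with the lowest p rose by 1.28 on the log2 scale (adjusted p = 0.0196). Another unnamed probe lay under the limit in all LY mice and was at least 1.84-fold lower (adjusted p = 0.0418). That probe passed the filter only through the black mice.

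Genes that missed the threshold with a 1.5-fold difference or more and no overlap between the groups include further metabolic and mitochondrial genes. Efhd1, a calcium-binding protein of mitochondria, measured 24.3, 24.2 and 26.0 units in black and 38.1, 38.2 and 40.9 in LY mice, a log2 difference of 0.65 (limma adjusted p = 0.0607). Mrs2, a magnesium channel of the inner mitochondrial membrane, measured 2.40, 2.66 and 2.39 against 3.57, 3.77 and 4.58 units, a log2 difference of 0.67 (adjusted p = 0.0638). Aacs, which activates acetoacetate for lipid synthesis, measured 4.54, 3.72 and 4.22 against 8.79, 6.14 and 9.30 units, a log2 difference of 0.94 (adjusted p = 0.0769). LY replicate 2 was the lowest LY mouse for Aacs. Vgll3, a cofactor of TEAD transcription factors, and Selp, the adhesion molecule P-selectin, had log2 differences of 0.79 and 0.72 (adjusted p = 0.0924 each).

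On the lower side, Bex1 measured 9.07, 14.0 and 10.2 units in black and 5.58, 6.17 and 5.56 in LY mice, a log2 difference of -0.92 (limma adjusted p = 0.0934). Gata6, a transcription factor of granulosa and theca cells, measured 5.99, 5.13 and 4.99 against 3.45, 2.78 and 2.49 units, a log2 difference of -0.89 (adjusted p = 0.112), and a second probe gave -0.47. Black mice were the higher group at both Gata6 probes. Vwf, the clotting factor of endothelial cells, measured 2.88, 3.31 and 3.64 against 1.95, 2.11 and 1.66 units, a log2 difference of -0.78 (adjusted p = 0.114). Spsb1, an adaptor of ubiquitin ligases, had a log2 difference of -0.65, with -0.56 at a second probe, and Grin2c, a subunit of NMDA receptors, of -0.85 (adjusted p = 0.114 and 0.104).

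The chromosomal neighbours of agouti were examined as a list of 15 genes, agouti included, all of them measured. Apart from agouti, 3 were higher and 2 lower in LY ovaries at an unadjusted p under 0.05, and none was called. At the same threshold 8.40% of all genes were higher and 4.17% lower. With quantile normalization 1 neighbour was higher and 1 lower. The higher neighbours were Map1lc3a, a protein of autophagosomes, at 0.34, Trp53inp2, a regulator of autophagy, at 0.30, and Acss2, which makes acetyl-CoA from acetate, at 0.45 on the log2 scale (limma adjusted p = 0.206, 0.302 and 0.248). Their 90-day estimates were 0.00, -0.23 and -0.68. The lower neighbours were Raly and Eif2s2. Raly, an RNA-binding protein with 1 disrupted copy in Ay/a mice, measured 15.9, 23.6 and 14.6 units in black and 10.9, 8.77 and 10.8 in LY mice, a log2 difference of -0.81 (limma adjusted p = 0.147) at 180 days and of -0.73 at 90 days. The groups did not overlap, and a second Raly probe averaged 5.30 units in black and 2.48 in LY mice. Eif2s2, a translation initiation factor that lies between Raly and agouti, had log2 differences of -0.43 at 180 days and -0.65 at 90 days (adjusted p = 0.211 at 180 days). One of 3 probes of the ubiquitin ligase Itch measured 1.74, 2.11 and 1.76 units in black and 0.955, 0.896 and 0.730 in LY mice, a log2 difference of -1.12 (adjusted p = 0.0607) at 180 days and of -0.79 at 90 days. The other Itch probes gave -0.42 and -0.27 at 180 days and 0.23 and -0.19 at 90 days. The Itch probes thus differ in size at 180 days and in sign at 90 days.

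Over all 15967 genes the median log2 fold change was 0.041, and the middle 50% of genes lay between -0.088 and 0.159. The share of genes that were higher in LY ovaries at an unadjusted p under 0.05 increased with level, from 7.08% of 5055 genes under 1 unit and 7.29% of 7942 genes from 1 to 10 units to 12.8% of 2608 genes from 10 to 50 units and 19.1% of 362 genes at 50 units or more. The median log2 fold change in these classes was 0.04, 0.03, 0.07 and 0.12.

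**Figure D3:**
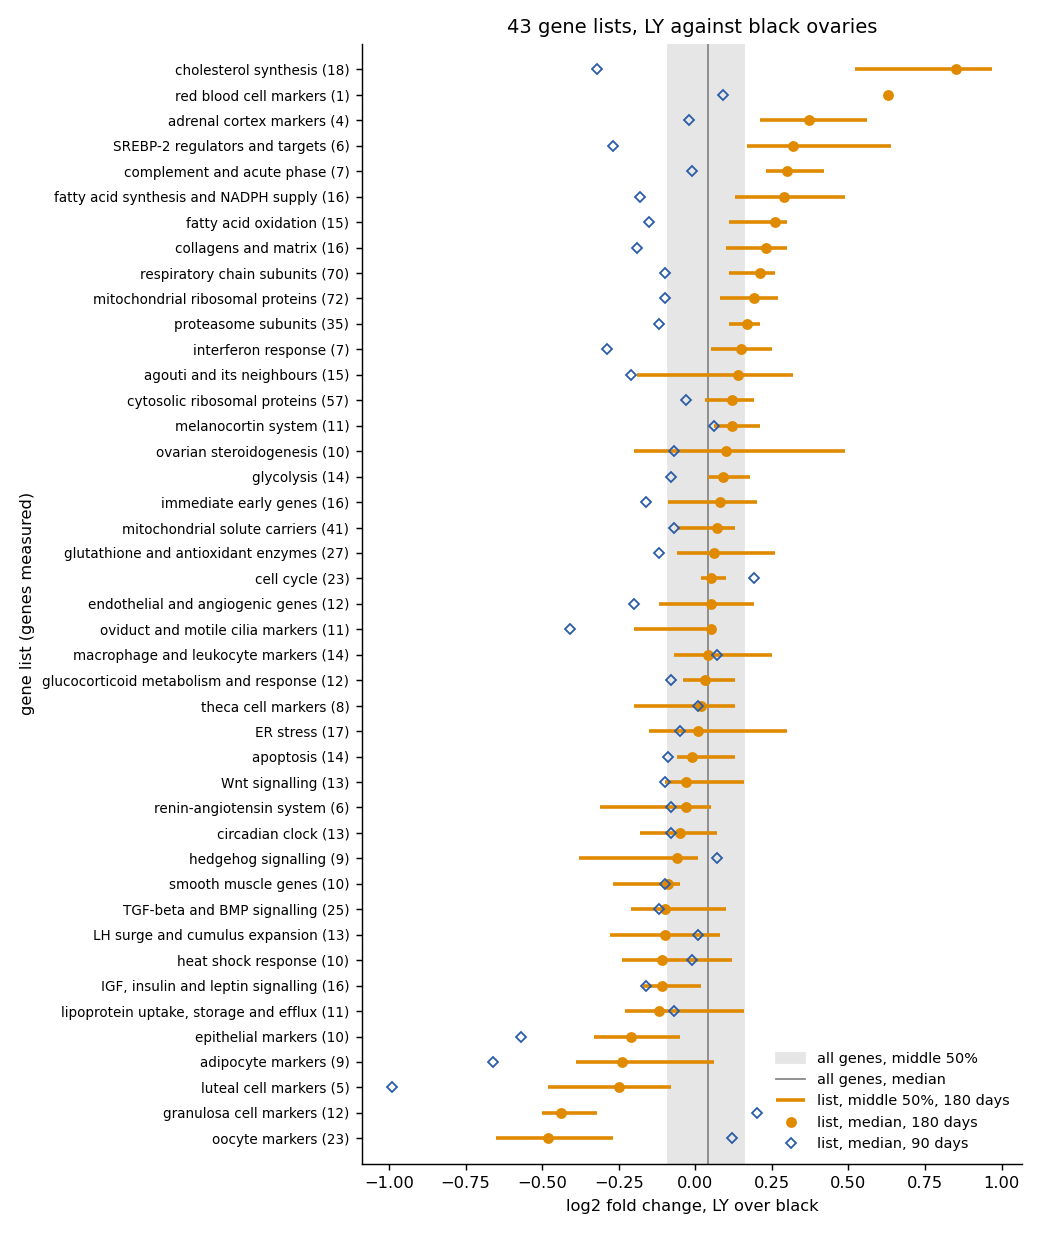
Medians (filled circles) and middle 50% (bars) of the log2 fold change of LY over black ovaries at 180 days for 43 gene lists, with the 90-day medians as open diamonds and all genes as the grey line and band. At 180 days the median of cholesterol synthesis is 0.85 at one end and that of oocyte markers is -0.48 at the other, and the median of all genes is 0.041.

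Subunits of the respiratory chain, which make ATP by oxidative phosphorylation, had a median log2 fold change of 0.21. Estimates were higher in LY ovaries for 66 of 70 genes measured, against 9482 of all 15967 genes. None of the 70 was called. At an unadjusted p under 0.05, 25 were higher (35.7%) and 1 was lower, against 8.40% and 4.17% of all genes. The groups lay apart with LY above black for 37 of them (52.9%), against 16.2% of all genes. Among all genes of higher level that share was 24% from 10 to 50 units and 31.8% at 50 units or more. Atp5g1, which encodes the ring subunit c of ATP synthase, measured 37.0, 43.5 and 37.8 units in black and 59.1, 59.6 and 54.3 in LY mice, a log2 difference of 0.55 (limma adjusted p = 0.0769), and a second, dimmer probe gave 0.10. Cox5a, a subunit of cytochrome c oxidase, had a log2 difference of 0.36 (adjusted p = 0.144). The mean log2 level of the list, set to 0 for the mean of the black mice, was 0.02, 0.06 and -0.09 in black and 0.21, 0.18 and 0.17 in LY mice, so each LY mouse lay above each black mouse. Most of the list is bright, and among its 41 genes at 50 units or more 13 were higher (31.7%), against 19.1% of all genes of that level, with medians of 0.21 and 0.12. Among its 18 genes from 10 to 50 units 8 were higher (44.4%), against 12.8%.

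Mitochondrial ribosomal proteins, which translate the mitochondrial genome, had a median of 0.19 over 72 genes. Of these, 23 were higher (31.9%) and 0 lower at an unadjusted p under 0.05, against 8.40% and 4.17% of all genes. None was called. Mrpl20 measured 48.2, 44.8 and 39.7 units in black and 60.6, 59.3 and 55.6 in LY mice, a log2 difference of 0.41 (limma adjusted p = 0.144). Among the 43 genes of this list from 10 to 50 units 17 were higher (39.5%), against 12.8% of all genes of that level. Subunits of the proteasome, which degrades tagged proteins, had higher estimates for all 35 genes measured, against 9482 of all 15967 genes. The proteasome median was 0.17, and 6 subunits were higher at an unadjusted p under 0.05 (17.1%). Psmb5, the chymotrypsin-like catalytic subunit, measured 55.3, 58.8 and 55.6 against 69.0, 77.8 and 73.0 units, a log2 difference of 0.37 (adjusted p = 0.133). The share of higher proteasome genes was near that of genes of like level, at 4 of 22 (18.2%) from 10 to 50 units and 2 of 9 (22.2%) at 50 units or more, against 12.8% and 19.1%. Cytosolic ribosomal proteins had a median of 0.12 over 57 genes, with 9 higher (15.8%) and 2 lower, and 7 of their 46 genes at 50 units or more were higher (15.2%), under the 19.1% of all such genes. Carriers of the inner mitochondrial membrane had a median of 0.07 over 41 genes, with 3 higher and 2 lower. The carriers were thus close to the background.

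The size of these differences depended on the scaling. With quantile normalization, which forces 1 distribution on every array, the medians were 0.08 for the respiratory chain, 0.10 for mitochondrial ribosomal proteins, 0.08 for the proteasome and 0.03 for cytosolic ribosomal proteins, against 0.02 for all genes. The genes higher at an unadjusted p under 0.05 then numbered 7 (10% of the list), 8 (11.1%), 2 (5.71%) and 5 (8.77%), against 6.85% of all genes, so that the proteasome lay under the background. Without black replicates 1, 2 and 3 the respiratory chain had 16, 22 and 8 such genes, and without LY replicates 1, 2 and 3 it had 9, 14 and 14. For mitochondrial ribosomal proteins the same counts were 13, 20 and 14 and then 16, 14 and 17, for the proteasome 4, 4 and 2 and then 6, 3 and 4, and for cytosolic ribosomal proteins 7, 11 and 4 and then 5, 6 and 10. With quantile normalization estimates were higher for 52 of 70 respiratory chain genes and 30 of 35 proteasome genes, against 8879 of 15967 genes.

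**Figure D4:**
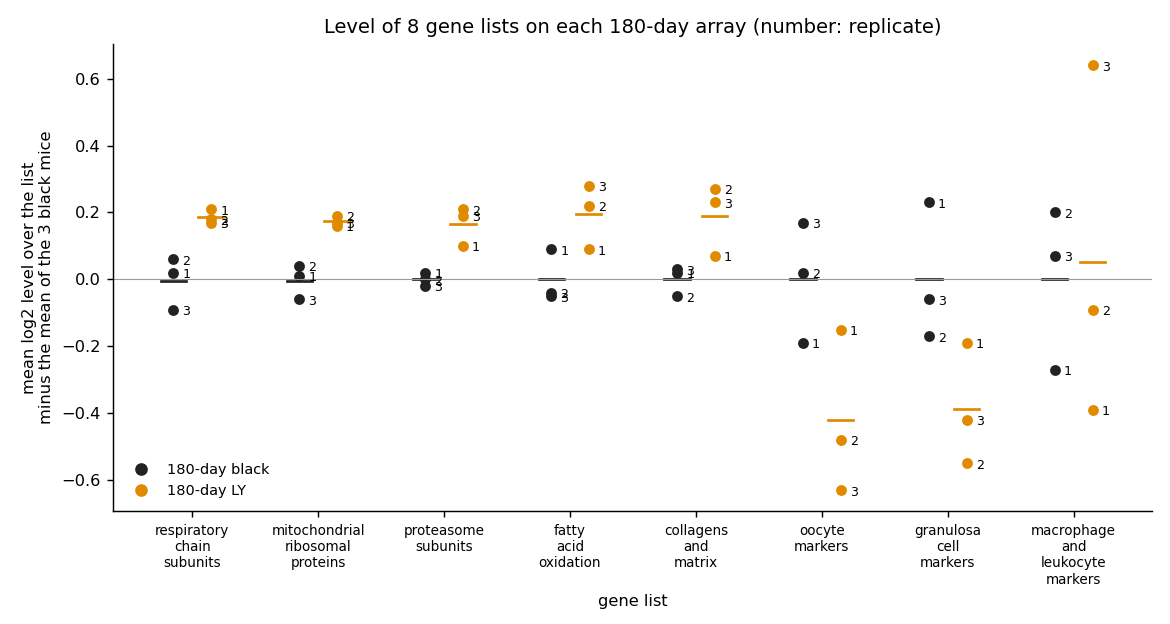
Mean log2 level of 8 gene lists on each 180-day array, minus the mean of the 3 black mice, with black mice in black, LY mice in orange, replicate numbers beside the points and horizontal bars for group means. For the respiratory chain, mitochondrial ribosomal proteins and the proteasome all LY mice lie above all black mice, whereas for oocyte markers LY replicate 1 (-0.15) lies above black replicate 1 (-0.19) and for macrophage markers LY replicate 3 lies alone at 0.64.

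Genes of fatty acid synthesis and NADPH supply had a median log2 fold change of 0.29 over 16 genes, and Me1 was called. In LY ovaries 8 were higher (50%) and 0 lower at an unadjusted p under 0.05, against 8.40% and 4.17% of all genes. From 10 to 50 units 1 of 4 was higher (25%), against 12.8% of all genes of that level. At 50 units or more it was 4 of 5 (80%), against 19.1%. Elovl5, an elongase of polyunsaturated fatty acids, measured 51.7, 56.1 and 50.6 units in black and 70.5, 64.7 and 75.6 in LY mice, a log2 difference of 0.41 (limma adjusted p = 0.143). Fads1, a desaturase of the same pathway, measured 82.0, 73.4 and 69.1 against 102, 105 and 167 units, a log2 difference of 0.70 (adjusted p = 0.181), with LY replicate 3 far above the others. Fasn, the fatty acid synthase itself, had a log2 difference of 0.18 (adjusted p = 0.552) and Acaca, which makes its substrate malonyl-CoA, one of 0.06 (adjusted p = 0.88). Srebf1, a transcription factor of the SREBP family, gave -0.07 (adjusted p = 0.911).

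Enzymes of fatty acid oxidation had a median of 0.26 over 15 genes. Of these, 6 were higher (40%) and 0 lower at an unadjusted p under 0.05, against 8.40% and 4.17% of all genes. None was called. Acadl, the long-chain acyl-CoA dehydrogenase, measured 77.9, 75.7 and 68.7 units in black and 106, 99.4 and 97.7 in LY mice, a log2 difference of 0.45 (limma adjusted p = 0.118). The thiolase Acaa2 had a log2 difference of 0.30 (adjusted p = 0.211). The 6 genes became 2 with quantile normalization, 2 without black replicate 2, 3 without LY replicate 2 and 2 without LY replicate 3. Glycolysis had a median of 0.09 over 14 genes, with 1 higher and 0 lower, close to all genes.

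Oocyte markers had the lowest median of the 43 lists, at -0.48 over 23 genes, with 20 estimates lower in LY ovaries. At an unadjusted p under 0.05, 15 were lower (65.2%) and 0 higher, against 4.17% of all genes lower, and none was called. Zp3, the sperm-binding protein of the zona pellucida, measured 28.0, 29.9 and 36.4 units in black and 23.2, 17.8 and 15 in LY mice, a log2 difference of -0.76 (limma adjusted p = 0.149). Npm2, a histone chaperone of the egg, and H1f8, the linker histone of oocytes, had log2 differences of -0.54 and -0.57 (adjusted p = 0.271 and 0.281). Both overlapped, since LY replicate 1 lay within the black mice. The 3 estimates that were not lower were those of the zona pellucida protein Zp1 (0.03), the egg protein Padi6 (0.06) and the germ cell helicase Ddx4 (0.02). The summed level of the list was 148.0, 176.1 and 195.3 units in black mice and 150.8, 114.9 and 98.0 units in LY mice, so the groups overlapped at black replicate 1 and LY replicate 1. The count of 15 became 2 without black replicate 3 and 2 without LY replicate 3, with medians of -0.40 and -0.36, and 6 and 7 without black replicate 2 and LY replicate 2.

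Granulosa cell markers had a median of -0.44 over 12 genes. Of these, 4 were lower (33.3%) and 0 higher at an unadjusted p under 0.05, against 4.17% and 8.40% of all genes. None was called. Fst, which encodes the activin-binding protein follistatin, measured 17.8, 17.8 and 12.7 units in black and 13.2, 8.69 and 8.53 in LY mice, a log2 difference of -0.68 (limma adjusted p = 0.302). Hsd17b1, which converts estrone to estradiol in granulosa cells, measured 52.8, 36.5 and 43.8 against 35.5, 27.3 and 30.2 units, a log2 difference of -0.51 (adjusted p = 0.355). The nuclear receptor Nr5a2 and the FSH receptor Fshr gave -0.49 and -0.55, while Amh gave 0.10. Summed levels of the granulosa list were 403.3, 319.0 and 343.7 units in black and 304.3, 234.0 and 280.0 in LY mice. No gene of the list had an unadjusted p under 0.05 without black replicate 1, LY replicate 2 or LY replicate 3, where the medians were -0.29, -0.32 and -0.44. Theca cell markers had a median of 0.02 over 8 genes, which turned to -0.03 with quantile normalization, and none had an unadjusted p under 0.05. Thus the oocyte and granulosa lists lay lower than all genes and the theca list did not, a contrast between lists that was not tested.

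Macrophage, adipocyte, epithelial and red blood cell markers gave no call, and 1 adrenal cortex marker, Mrap, was called. Macrophage and leukocyte markers had a median of 0.04 over 14 genes, with summed levels of 96.3, 126.3 and 149.6 units in black and 88.6, 119.3 and 160.3 in LY mice, and the sums overlapped. The median moved in both directions with single mice left out, from -0.37 without LY replicate 3 and -0.08 without black replicate 1 to 0.23 without black replicate 2 and 0.30 without LY replicate 1. That mouse, LY replicate 3, had the highest sum of macrophage markers and the lowest sum of oocyte markers, and the part of either in the other was not tested. Adipocyte markers had a median of -0.24 over 9 genes, with the highest sum, 55.8 units, in black replicate 3 and 27.5 to 35.7 units in the other 5 mice. Without black replicate 3 the adipocyte median turned to 0.09, and it was -0.02 and -0.06 without LY replicates 2 and 3. The progesterone-degrading enzyme Akr1c18, a luteal marker, stood at 25.7 units in the same black mouse and at 0.973 to 3.21 units elsewhere. Epithelial markers had a median of -0.21 over 10 genes, with Epcam at -0.55 and Krt8 at -0.31 (limma adjusted p = 0.287 and 0.369). The epithelial median was -0.09 without LY replicate 3 and -0.13 without black replicate 3. The 2 epithelial genes lower at an unadjusted p under 0.05 (20%, against 4.17% of all genes) became 0 and 1. Of the red blood cell markers 1 was measured, the heme synthesis enzyme Alas2, at 2.37, 2.00 and 2.23 units in black and 3.75, 2.60 and 4.01 in LY mice, a log2 difference of 0.63 (adjusted p = 0.192).

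Collagens and matrix genes, with Col5a3 not among the 16 listed, had a median of 0.23. Of these, 6 were higher (37.5%) and 0 lower at an unadjusted p under 0.05, against 8.40% and 4.17% of all genes. From 10 to 50 units 3 of 9 were higher (33.3%), against 12.8% of all genes of that level. At 50 units or more it was 3 of 4 (75%), against 19.1%. None was called. Col3a1, a chain of fibrillar collagen, measured 107, 109 and 98.5 units in black and 127, 180 and 169 in LY mice, a log2 difference of 0.58 (limma adjusted p = 0.197). Sparc, a collagen-binding protein, had a log2 difference of 0.29 (adjusted p = 0.279). LY replicates 2 and 3 were higher than LY replicate 1 for the list as a whole, at 0.27 and 0.23 against 0.07. The 6 genes became 4 with quantile normalization, 2 without black replicate 2, 3 without LY replicate 2 and 3 without LY replicate 3. Endothelial and angiogenic genes were mixed, with a median of 0.05. At that p 3 of 12 were higher (25%) and 2 lower (16.7%), against the same 8.40% and 4.17% of all genes. The counts became 1 and 1 without black replicate 3 or LY replicate 1, and 1 and 3 without LY replicate 3. Smooth muscle genes had none with an unadjusted p under 0.05 in either direction.

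Of 10 genes of steroidogenesis, 3 were higher and 2 lower at an unadjusted p under 0.05, against 8.40% and 4.17% of all genes, and the median was 0.10. The lower genes became 0 without black replicate 1, black replicate 3, LY replicate 2 or LY replicate 3, while 3 or 4 genes stayed higher with any 1 of the 6 mice left out and 2 with quantile normalization. The higher genes act at the mitochondrial entry of cholesterol. Tspo, a cholesterol-binding protein of the outer mitochondrial membrane, measured 21.3, 25.3 and 19.5 units in black and 30.4, 32.0 and 36.6 in LY mice, a log2 difference of 0.58 (limma adjusted p = 0.118). Star, which carries cholesterol into mitochondria, measured 19.9, 23.8 and 16.4 against 41.7, 28.1 and 44.0 units, a log2 difference of 0.91 (adjusted p = 0.146). The side-chain cleavage enzyme Cyp11a1 measured 59.2, 57.8 and 57.9 against 76.5, 73.3 and 98.1 units, a log2 difference of 0.49 (adjusted p = 0.204). All 3 had LY mice above black mice without overlap (30% of the list), against 16.2% of all genes. Among all genes of higher level that share was 24% from 10 to 50 units and 31.8% at 50 units or more. The 3 were picked by p on these same values, so their lack of overlap is a description. The lower 2 were the granulosa genes Hsd17b1 and Fshr.

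In the renin-angiotensin list Agt was called and the other 5 genes measured had no unadjusted p under 0.05, with Enpep, which trims angiotensin II, at -0.39 (-0.60 to -0.21 with single arrays left out, and -0.02 at a second probe) and the converting enzyme Ace at 0.16 on the log2 scale. In the glucocorticoid list 1 of 12 genes was higher and 1 lower (8.33% each), against 8.40% and 4.17% of all genes. Hsd11b1, which reactivates glucocorticoids, measured 0.570, 0.592 and 0.597 units in black and 0.839, 1.40 and 1.23 in LY mice, a log2 difference of 0.95 (limma adjusted p = 0.134). Hsd11b2, which inactivates them, measured 7.72, 7.96 and 10.7 against 5.73, 4.55 and 3.60 units, a log2 difference of -0.93 (adjusted p = 0.21). Both separated the groups without overlap, as did 23.2% of all genes in either direction, and neither was called. Among adrenal cortex markers, Mrap was called, Cyp11b2 gave 0.46 (adjusted p = 0.347), and Mc2r lay near the limit in both groups.

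Insulin-like growth factor (IGF), insulin and leptin signalling had a median of -0.11 over 16 genes. Of these, 2 were higher (12.5%) and 3 lower (18.8%) at an unadjusted p under 0.05, against 8.40% and 4.17% of all genes. The 2 higher genes became 1 without black replicate 3 or LY replicate 3. Igfbp2, an IGF-binding protein, measured 16.7, 17.9 and 14.1 units in black and 24.5, 32.0 and 28.9 in LY mice, a log2 difference of 0.81 (limma adjusted p = 0.183). Igf1r, the receptor of IGF-1, measured 24.8, 23.7 and 23.6 against 20.1, 15.4 and 19.6 units, a log2 difference of -0.40 (adjusted p = 0.237), while a second, dimmer probe gave -0.12 with overlapping groups. Lep, the fat hormone leptin, lay under the limit in all black mice and at 0.310, 0.223 and 0.442 units in LY mice, at least 1.56-fold higher with the black mice set to the limit, and was not called (adjusted p = 0.283).

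Stress and redox genes showed a few separated genes within lists that otherwise lay near 0. Of 17 genes of endoplasmic reticulum stress, 4 were higher (23.5%) and 1 lower (5.88%) at an unadjusted p under 0.05, against 8.40% and 4.17% of all genes. The lower count was 0 without any 1 of 5 mice, black replicate 1 apart. Their median was 0.01 (-0.01 with quantile normalization). Asns, the asparagine synthetase induced by Atf4, measured 4.87, 4.47 and 4.95 units in black and 7.75, 13.8 and 7.05 in LY mice, a log2 difference of 0.94 (limma adjusted p = 0.15). Chac1, Atf4 and Trib3, members of the same amino acid response, gave 0.43, 0.38 and 0.31 (adjusted p = 0.171, 0.217 and 0.29). The groups lay apart with LY above black for these and Asns, 4 genes of the list (23.5%), against 16.2% of all genes. They were named for their low p, and 7 of the 17 estimates of the list were lower in LY ovaries. Of 27 glutathione and antioxidant genes, 5 were higher (18.5%) and 2 lower (7.41%), against 8.40% and 4.17% of all genes, with a median of 0.06. With quantile normalization 2 were higher and 2 lower, and 3 were higher without black replicate 1, black replicate 3 or LY replicate 2. The glutathione transferase Gsta3 gave 0.68 (adjusted p = 0.196), the lipid peroxidase Gpx4 0.34 (adjusted p = 0.248) and the heme oxygenase Hmox1 -0.40 (adjusted p = 0.204). Cell cycle (23 genes), hedgehog signalling (9), LH surge and cumulus expansion (13) and the circadian clock (13) had no gene at an unadjusted p under 0.05 in either direction, with medians of 0.05, -0.06, -0.10 and -0.05.

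The study included 90-day mice, before the LY mice become obese, to ask which differences are present without obesity. Of the 33 probes, 1 was called at 90 days as well (agouti, with 19 probes called in all, 0.0626%), and 10 had an unadjusted p under 0.05 there. Among all probes tested, 5.27% were higher and 8.19% lower in LY ovaries at that p at 90 days. The spread of a probe was estimated over both ages together, so it entered the call at 180 days and the p at 90 days alike. The count of 10 is therefore a description. The estimate at 90 days was opposite in sign for 23 of the 33 probes, against 48.7% of all probes tested. Mrap gave 0.86 at 180 days and -0.40 at 90 days (unadjusted p = 0.00975 at 90 days), and Cisd3 gave 0.76 and -0.29. Tmem97, Slc28a2, Agt and Il5ra gave -0.07, 0.06, 0.06 and 0.04 at 90 days, all close to 0. The test of the difference between the ages called 2 probes (0.00659%), those of Fdps and Hmgcs1 (limma adjusted p = 0.0492 each). It called 0 with the 75th percentile, values as deposited, the replicate block or the filter over all 4 groups, and leaving out any one of 7 single arrays also gave 0, namely those of black replicates 2 and 3 and LY replicate 1 at 180 days and of black replicates 2 and 3 and LY replicates 1 and 2 at 90 days. At an unadjusted p under 0.05 it held for 32 of the 33 probes against 12.4% of all probes, but this difference contains the 180-day difference by which the probes were called, so the count is a description.

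The same turn was present in several lists. The 90-day medians were -0.10 for the respiratory chain and for mitochondrial ribosomal proteins, -0.12 for the proteasome, -0.18 for fatty acid synthesis and -0.19 for collagens and matrix. For oocyte and granulosa markers they were 0.12 and 0.20. The median over all genes was -0.03 at 90 days and 0.041 at 180 days, and 10.8% of genes were lower and 4.16% higher in LY ovaries at 90 days at an unadjusted p under 0.05. Genes at 50 units or more had a median of -0.08 at 90 days and 0.12 at 180 days. The lists that were higher at 180 days thus turned in the same direction as bright genes in general. The oocyte and granulosa lists turned the other way, lower at 180 days and higher at 90 days. Whether any of these lists differs from other genes of like level was not tested.

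**Figure D5:**
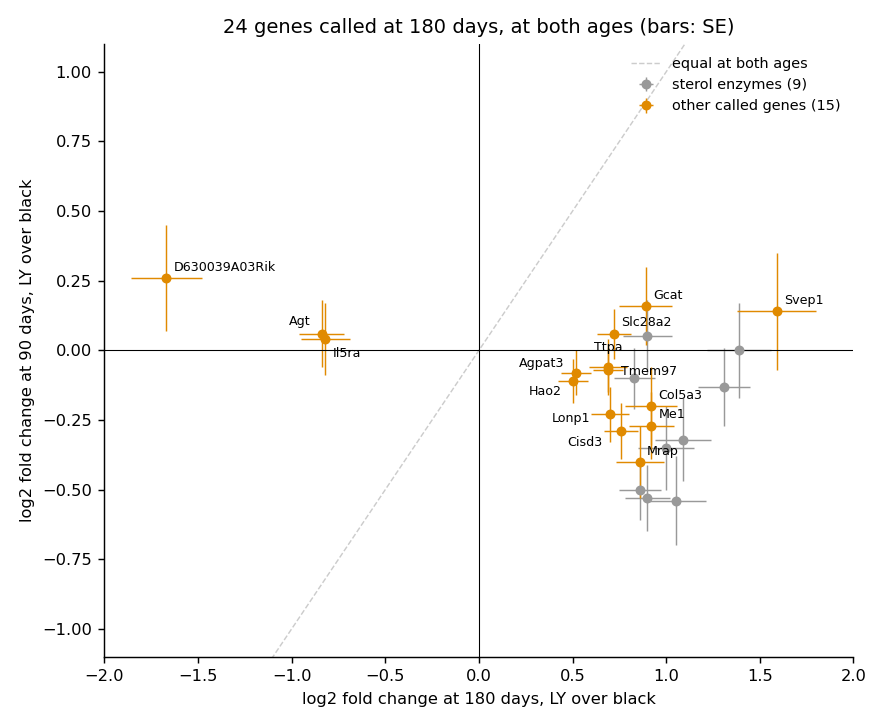
Log2 fold change of LY over black ovaries at 180 days (x axis) and 90 days (y axis) for the 24 called genes other than agouti, with bars for 1 SE, sterol enzymes in grey and the other called genes in orange. Most points lie to the right of 0 at 180 days and at or under 0 at 90 days, such as Mrap at 0.86 and -0.40, and none lies on the dashed line of equal change.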

How the data were processed

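RNA of whole ovaries from 12 mice was hybridized to one-colour CodeLink arrays. The authors scanned them with GenePix, subtracted background with the CodeLink software and normalized every slide to the 50th percentile in GeneSpring 7.0, and the deposited intensity values are these relative units on a linear scale. The methods also name a step per gene, to median expression, which the deposited values do not show. Here each array was divided by its median, floored at 0.01 units and taken to log2, so folds of dim probes depend on the floor. Probes named for several genes (681) or none (13931) are counted and not named. limma 3.58.1 in R 4.3.3 fitted a mean for each of the 4 groups over the 12 arrays (8 residual and 2.927 prior degrees of freedom), with the Benjamini-Hochberg adjustment over 30340 probes, 148 of which miss a value on a 180-day array. The code was checked on simulated data. Replicates are separate mice, and 3 per group limit the precision. A gene of a list is given by its brightest probe, and where all mice of a group lay under 0.2 units a fold is a lower bound with them set to 0.2.

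The members, the 43 lists and the rule for named genes were chosen with earlier results of these data known. The rule names called genes, up to 15 higher and 15 lower genes of lowest p with at least a 1.5-fold difference and no overlap, up to 4 genes of each list by p, and genes the paper discusses. Fasn, Acaca, Srebf1, Zp1, Padi6, Ddx4, Trp53inp2 and second probes were chosen after their values were seen. No pairing of the mice by replicate number was seen, and the main fit used none. The alternatives were other scalings, floors, filters, variance models, the replicate block, the methods' t-test and each array left out. Body weight, RT-PCR and corticosterone were not analysed here.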

Additional observations from a re-analysis of the deposited data

Results flagged for a closer look

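The difference of LY from black ovaries itself differed between the ages for Fdps and Hmgcs1, by limma's test of the interaction of genotype with age. Fdps, farnesyl diphosphate synthase, rose by 0.86 ± 0.11 on the log2 scale at 180 days (SE, limma adjusted p = 0.0266) and gave -0.50 ± 0.11 at 90 days, a difference of 1.36 between the ages (limma adjusted p = 0.0492). It measured 86.3, 79.1 and 76.3 units in 180-day black mice and 148, 146 and 144 units in 180-day LY mice. Hmgcs1, HMG-CoA synthase, rose by 0.90 ± 0.12 at 180 days (limma adjusted p = 0.0266) and gave -0.53 ± 0.12 at 90 days, a difference of 1.43 (limma adjusted p = 0.0492). It measured 1.69, 1.83 and 1.5 units in 180-day black mice and 3.15, 3.10 and 3.09 in 180-day LY mice. At 90 days it measured 3.60, 4.08 and 3.14 units in black and 2.59, 2.24 and 2.65 units in LY mice, so the groups lay apart with black above LY at 90 days and LY above black at 180 days. Both calls lie just inside the threshold and were lost with the 75th percentile, with values as deposited and with the replicate block, which called 0 probes between the ages. Age cannot be told apart from the array set here.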

How the results depend on the processing

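Of 33 probes called (26 higher, 7 lower, 8 named genes of at least 1.9-fold, 2 probes that differed between the ages), the count ran from 29 to 39 with quantile normalization, the 75th percentile, values as deposited or log2(value + 0.1), and the cause of the changes below was not tested. Probes that differed between the ages numbered 4 with quantile normalization, 0 with the 75th percentile or values as deposited, and 52 with log2(value + 0.1). A floor of 0.2 units called 70 probes (53 higher, 17 lower, 14 of at least 1.9-fold, 69 between ages). No filter on dim probes called 1 (1 higher, 0 lower, 1, and 0 between ages), a mean of at least 0.2 units in both 180-day groups 26 (4 lower, 15 between ages), and in any of the 4 groups 14 (13 higher, 1 lower, 0 between ages). limma on the 6 arrays of 180-day mice called 2 (2 higher, 0 lower, 1 of at least 1.9-fold). An intensity trend called 118 (90 higher, 28 lower, 15, and 212 between ages) and array quality weights 227 (161 higher, 66 lower, 21 of at least 1.9-fold). The methods' t-test called 0 after Benjamini-Hochberg adjustment (0 higher, 0 lower, 0) and 4165 probes before it. With each of the 12 arrays left out, 2 to 26 probes were called, 2 to 19 of them higher and 0 to 8 lower, with 2 to 12 named genes of at least 1.9-fold and 0 to 68 probes that differed between ages. Same-numbered LY and black mice had correlations of their deviations of 0.0018, -0.108 and -0.0824 and 0 arrays correlated best with their own number. No pairing by number was thus seen, though so few mice cannot exclude one. With the replicate block 2 probes were called (1 higher, 1 lower, 2 of at least 1.9-fold, 0 between ages).

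Of 2268 values of named genes under the alternatives, 1892 kept their direction and side of the threshold, 324 lost the call, 46 gained one and 6 turned in sign, all 6 in genes near 0 that were not called. Agouti lost its call with the methods' t-test alone (adjusted p = 0.067). Acaca gave -0.01 with quantile normalization. With single arrays left out Srebf1 ran from -0.23 to 0.08, Zp1 from -0.00 to 0.08 and Ddx4 from -0.04 to 0.04. Of 1118 list medians, 41 moved by more than 1 SD. Where a group lay under 0.2 units, signal allows only a bound.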
